A study of Mus musculus with 12 samples.

Results

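The oligoadenylate synthetase family comprised 8 genes of the 55806 in the deposited expression table, chosen by gene symbol: Oas1a, Oas1b, Oas1c, Oas1g, Oas2, Oas3, Oasl1 and Oasl2. RNA sequencing was done on mouse osteoclasts, the multinucleated cells that resorb bone, grown from bone marrow monocytes of mice aged 8 to 12 weeks with M-CSF and RANKL and collected on day 4. The 12 libraries formed 4 groups of 3, control and Per2 knockout of each sex, and each group had 1 library in each of 3 labelled batches. Per2 encodes a clock protein that represses CLOCK and BMAL1. Library names abbreviate the knockout as cKO, and the labels give neither the deleted exons, the cells in which Per2 was deleted, nor the allele carried by the controls. The labels call the libraries biological replicates without naming the animals, so the p-values reflect library-to-library spread, which may be technical.

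Oligoadenylate synthetases are induced by interferon. The catalytically active members bind double-stranded RNA and join ATP into short chains with 2'-5' bonds, called 2-5A. These chains act as a signal that limits viral growth.

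All 8 genes lie on mouse chromosome 5 in 2 clusters (GRCm38, GENCODE M21). Oasl2 (114896936 to 114912234) and Oasl1 (114923240 to 114937915) lie on the plus strand. The second cluster holds Oas2 (120730333 to 120749853), Oas3 (120753098 to 120777661), Oas1c (120800194 to 120812514), Oas1g (120876142 to 120887613) and Oas1a (120896256 to 120907521) on the minus strand. Oas1b (120812635 to 120824163) lies there on the plus strand, head to head with Oas1c with 120 bases between them, and is annotated as a polymorphic pseudogene. The other 7 are annotated as protein coding.

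Promoter windows from RefSeq (GRCm38.p6, 250 bases before to 50 after the start) matched 6 of the 8 genes: Oas1a, Oas1c, Oas1g, Oas3, Oasl1 and Oasl2. They were searched on both strands for the core of the interferon-stimulated response element, a site bound by IRF factors, written as GAAA, any 2 bases, then GAAA. The 120 bases before the start are shown for the 4 genes that held this motif and for Oasl1, the gene with the largest difference in females. Capitals mark the motif, and overlapping matches run together.
Oas1a: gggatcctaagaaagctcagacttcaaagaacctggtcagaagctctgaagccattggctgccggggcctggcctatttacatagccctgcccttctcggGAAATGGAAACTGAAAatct
Oas1g: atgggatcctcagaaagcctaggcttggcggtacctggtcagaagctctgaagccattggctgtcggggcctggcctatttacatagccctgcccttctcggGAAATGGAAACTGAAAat
Oas1c: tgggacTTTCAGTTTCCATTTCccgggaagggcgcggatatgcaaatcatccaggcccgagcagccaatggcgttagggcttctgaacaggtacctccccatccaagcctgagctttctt
Oas3: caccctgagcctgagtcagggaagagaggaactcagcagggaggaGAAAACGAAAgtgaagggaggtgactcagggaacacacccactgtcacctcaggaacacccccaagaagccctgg
Oasl1: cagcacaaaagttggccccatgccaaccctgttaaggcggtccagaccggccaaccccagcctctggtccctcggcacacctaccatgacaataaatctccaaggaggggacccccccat

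These stretches lie at chr5:120907526-120907645 for Oas1a, chr5:120887614-120887733 for Oas1g, chr5:120812515-120812634 for Oas1c and chr5:120777660-120777779 for Oas3, all on the minus strand, and at chr5:114923120-114923239 on the plus strand for Oasl1. The motif stood in 4 of the 6 windows and in 3.44% of all 32851 RefSeq windows of the same length. Oas1a and Oas1g carried the same 16 bases, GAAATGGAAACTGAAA, directly before the start, and Oas1c carried them on the other strand. In the Oas1c window this box lay 7 to 22 bases before the start of Oas1b. Across the 32851 windows the box stood in 7, which belong to Oas1a, Oas1g, Oas1c and the interferon-inducible genes Apol9a and Apol9b. The gamma-activated site, written as TTC, any 3 bases, then GAA, stood in the Oas1a window alone (8.30% of all windows), and the E-box CACGTG, bound by the clock factors CLOCK and BMAL1, stood in none of the 6 (7.15% of all windows). A match is a description of the letters and not evidence of binding.

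The assigned reads ranged from 13888150 to 17762190 in 11 libraries, and male knockout replicate 2 held 41145397. Values are FPKM as the authors deposited them, which are scaled to gene length and library size, so levels can be compared between genes. Male controls held 0.579, 0.721 and 0.701 FPKM of Per2 and male knockouts 0.466, 0.390 and 0.230 (two-sided exact p = 0.1 by permutation, the minimum for 3 against 3 libraries). Female controls held 0.331, 0.530 and 0.368 FPKM and female knockouts 0.258, 0.204 and 0.589 (exact p = 0.6), and the library labelled female knockout replicate 3 was the highest of the 6 female libraries. None of the 10 osteoclast markers was at 0 in any group, and their summed level was 8239 to 9738 FPKM over the female control and male libraries and 10478 to 12805 in female knockouts.

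The family was low in female controls, intermediate in female knockouts and highest in both male groups. Summed over the 8 genes, female controls held 62.0 ± 7.95 FPKM and female knockouts 389 ± 53.7. Male controls held 694 ± 20.4 FPKM and male knockouts 731 ± 23.7 (SD, n = 3 each). All 8 genes were called higher in female knockouts against female controls, as were 24.9% of the 12102 genes tested. In males none of the 8 passed the test, and 0.0% of all genes tested did. In bulk RNA, fewer cells of a type and less RNA per cell cannot be told apart.

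**Figure D1:**
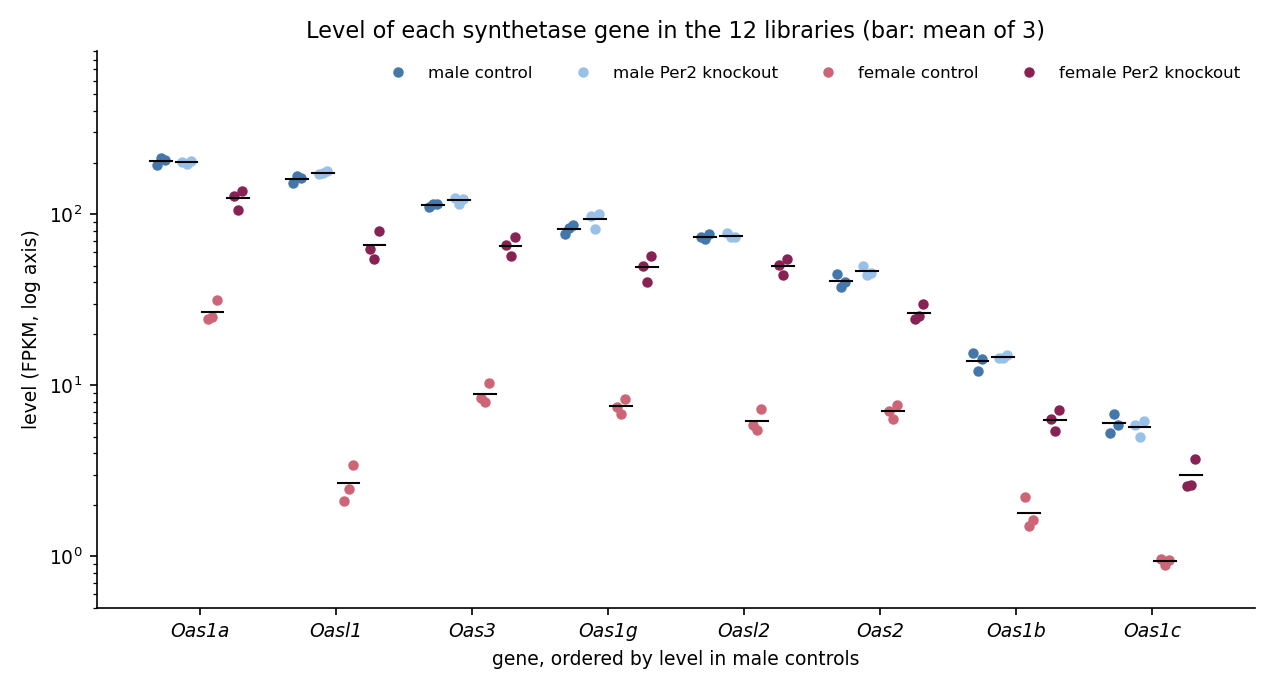
Level of each gene in FPKM on a log axis, 1 point per library and a bar for the mean of 3, with the genes ordered by their level in male controls. For every gene the 3 female control points lie lowest, the 3 female knockout points lie above them, and the 6 male points lie highest.

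Oas1a, an active synthetase, was the most abundant member in every group. Male controls held 194, 212 and 208 FPKM and male knockouts 202, 197 and 205. Female controls held 24.3, 25.0 and 31.6 FPKM and female knockouts 127, 106 and 137. The 2 male groups overlapped, while the female groups overlapped neither each other nor the males. Over all 12102 genes tested, the share without overlap was 58.5% between the female groups, 64.9% between the controls of the sexes, 48.9% between their knockouts, 43.1% between female knockouts and male controls, and 12.3% between the male groups. Oas1g, a close relative of Oas1a, had FPKM values of 76.1, 82.4 and 86.7 (male control), 97.7, 81.9 and 99.7 (male knockout), 7.48, 6.81 and 8.29 (female control) and 49.6, 39.9 and 57.2 (female knockout). The groups were ordered as for Oas1a, except that the mean of male knockouts lay above that of male controls, with overlap. Of the 50-base stretches of Oas1a transcripts, 57.6% also occurred in Oas1g, and of those of Oas1g 45.2% occurred in Oas1a, so the split of reads between the pair is uncertain. The summed reads of the pair do not depend on that split. They came to 68.4 ± 9.09 RPM of the FPKM denominator for female controls and 347 ± 50.6 for female knockouts (SD, n = 3), a 5.07-fold ratio.

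Oas2 and Oas3 are the larger synthetases, built from repeated synthetase units. Oas2 had FPKM values of 44.9, 37.4 and 40.3 (male control), 49.7, 44.1 and 45.3 (male knockout), 7.10, 6.33 and 7.71 (female control) and 24.4, 25.5 and 29.6 (female knockout). Oas3 had FPKM values of 110, 115 and 114 (male control), 124, 114 and 123 (male knockout), 8.47, 7.95 and 10.3 (female control) and 66.0, 56.8 and 73.6 (female knockout). Both showed the same order as Oas1g, with overlap between the male groups and none between any other neighbouring groups.

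Oas1b and Oas1c were the least abundant members. Oas1b, whose full-length allele confers resistance to flaviviruses in mice, had FPKM values of 15.3, 12.2 and 14.3 (male control), 14.5, 14.4 and 15.1 (male knockout), 2.23, 1.5 and 1.62 (female control) and 6.31, 5.40 and 7.15 (female knockout). Oas1c had FPKM values of 5.26, 6.81 and 5.85 (male control), 5.88, 4.95 and 6.21 (male knockout), 0.962, 0.889 and 0.953 (female control) and 2.59, 2.60 and 3.72 (female knockout). The male groups overlapped for both genes, and the female groups overlapped neither each other nor the males. Oas1c was the only member under 1 FPKM in any library, and all 8 passed the filter on low values. Oas1c overlaps an antisense long noncoding RNA, Gm43069, whose mean was at most 0.170 FPKM in any group.

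Oasl1 and Oasl2 are the synthetase-like members, which end in ubiquitin-like domains. OASL1 binds the Irf7 transcript and inhibits its translation in mouse cells, and mouse OASL2 has synthetase activity. Oasl1 had FPKM values of 152, 166 and 163 (male control), 171, 174 and 179 (male knockout), 2.11, 2.48 and 3.44 (female control) and 62.5, 54.8 and 79.2 (female knockout). It was the only member whose 2 male groups did not overlap, 1 of 8 where 12.3% of all genes tested did not. Oasl2 had FPKM values of 73.0, 71.7 and 76.3 (male control), 77.3, 73.3 and 73.8 (male knockout), 5.85, 5.47 and 7.25 (female control) and 50.6, 44.2 and 54.3 (female knockout). Its male groups overlapped, and its female groups stood apart from each other and from the males.

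Against female controls, all 8 genes were called higher in female knockouts by limma (adjusted p under 0.05), where 24.9% of the 12102 genes tested were called higher. The median difference of the 8 was 2.35 on the log2(FPKM + 1) scale, and that of all genes was −0.01. Oasl1 differed most, by 4.18 ± 0.14 (SE, adjusted p = 5.2e-09), and ranked 5 of 12102 when genes were ordered from the largest increase down. Oasl2 followed at 2.82, Oas3 at 2.75, Oas1g at 2.54, Oas1a at 2.15, Oas2 at 1.77 and Oas1b at 1.39. Oas1c differed least, by 1.02 ± 0.12 (adjusted p = 3.34e-05), and ranked 416 in that order. Ratios of mean FPKM ran from 3.18 for Oas1c to 24.5 for Oasl1, with a median of 5.54. The pseudocount of 1 FPKM understates the change of the low members: with 0.1 the difference of Oas1c was 1.55. Within the 3 batches the differences ran from 0.87 to 4.35. Their sign follows from the lack of overlap between the female groups for all 8 genes and is not further evidence.

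In males, 0 of the 8 genes were called by limma, and 0.0% of the 12102 genes were. Of all genes, 822 had an unadjusted p under 0.05, and none of these was a member. The voom fit on recovered reads called 2 of all genes and no member. The 8 differences ran from −0.06 for Oas1c to 0.18 for Oas1g, and their 95% intervals together covered −0.32 to 0.45. Oasl1, whose male groups did not overlap, differed by 0.12 (adjusted p = 0.925).

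The female and male knockout effects differed for all 8 genes in the interaction term of the limma model, where 17.9% of genes were called higher. The female effect exceeded the male one by 4.05 for Oasl1 (95% interval 3.63 to 4.48, adjusted p = 2.84e-07). For Oas1c, the member with the smallest interaction, it did so by 1.09 (0.72 to 1.45, adjusted p = 5.4e-04).

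**Figure D2:**
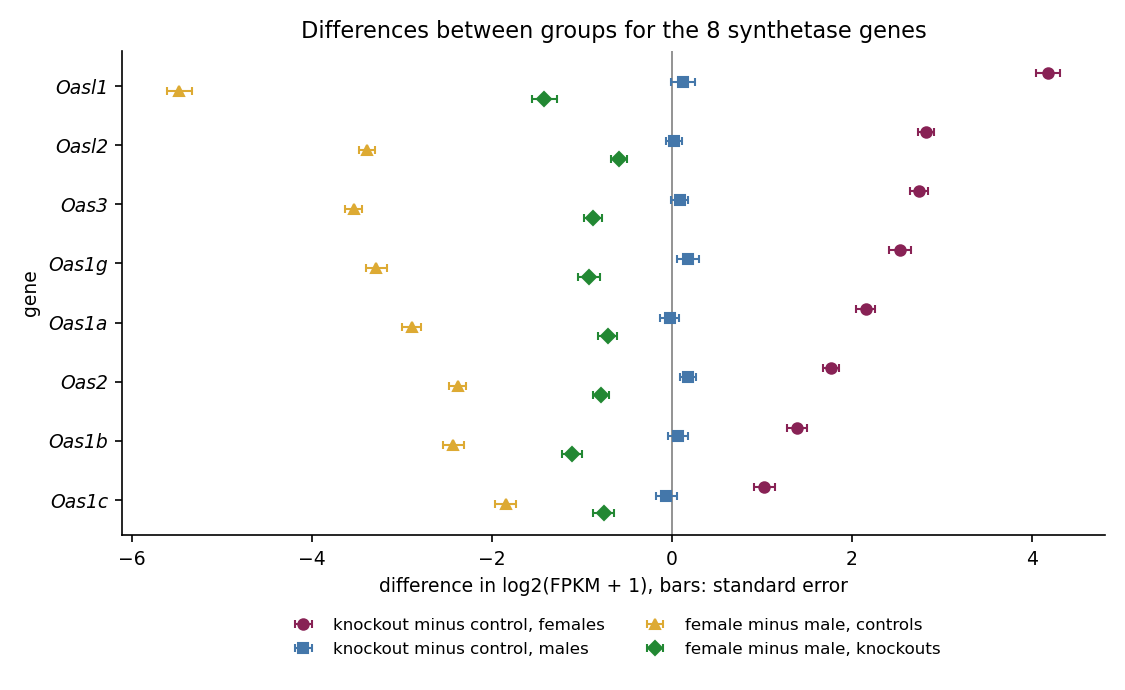
Differences in log2(FPKM + 1) for the 8 genes in 4 comparisons, with bars for the standard error. The female knockout differences run from 1.02 to 4.18, the male ones stay between −0.06 and 0.18, and both female minus male comparisons lie below 0.

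All 8 genes were lower in female than in male controls, where 30.7% of genes were called lower by limma. The difference was largest for Oasl1 at −5.47 ± 0.14 (SE, adjusted p = 2.12e-10) and smallest for Oas1c at −1.84 ± 0.12. Female controls held between 1.67% (Oasl1) and 17.2% (Oas2) of the male control mean. All 8 were also lower in female than in male knockouts, where 20.4% of genes were called lower. These differences ran from −0.58 for Oasl2 to −1.42 for Oasl1, and female knockouts held between 37.6% (Oasl1) and 66.5% (Oasl2) of the male knockout mean. The comparison of controls shares its female libraries with the female knockout comparison, so the 2 sets of values are not independent.

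The members did not keep fixed proportions. Oasl1 made up 4.28 ± 0.62% of the summed FPKM in female controls, 16.8 ± 0.99% in female knockouts, 23.1 ± 0.52% in male controls and 23.9 ± 0.86% in male knockouts (SD, n = 3). Oas1a made up 43.4 ± 1.63%, 31.8 ± 0.86%, 29.5 ± 0.62% and 27.6 ± 0.38% in the same order. For both shares the female groups did not overlap (exact permutation p = 0.1, the smallest possible). The male groups did not overlap for the Oas1a share either, which was lower in knockouts (exact permutation p = 0.1). For the Oasl1 share the male groups overlapped (exact permutation p = 0.2). In FPKM, 58.5% of all genes tested did not overlap between the female groups and 12.3% between the male groups. The share of Oas1g varied less, with group means from 11.8% to 12.7%. The shares of Oas1a and Oas1g both depend on the uncertain split of reads between that pair.

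**Figure D3:**
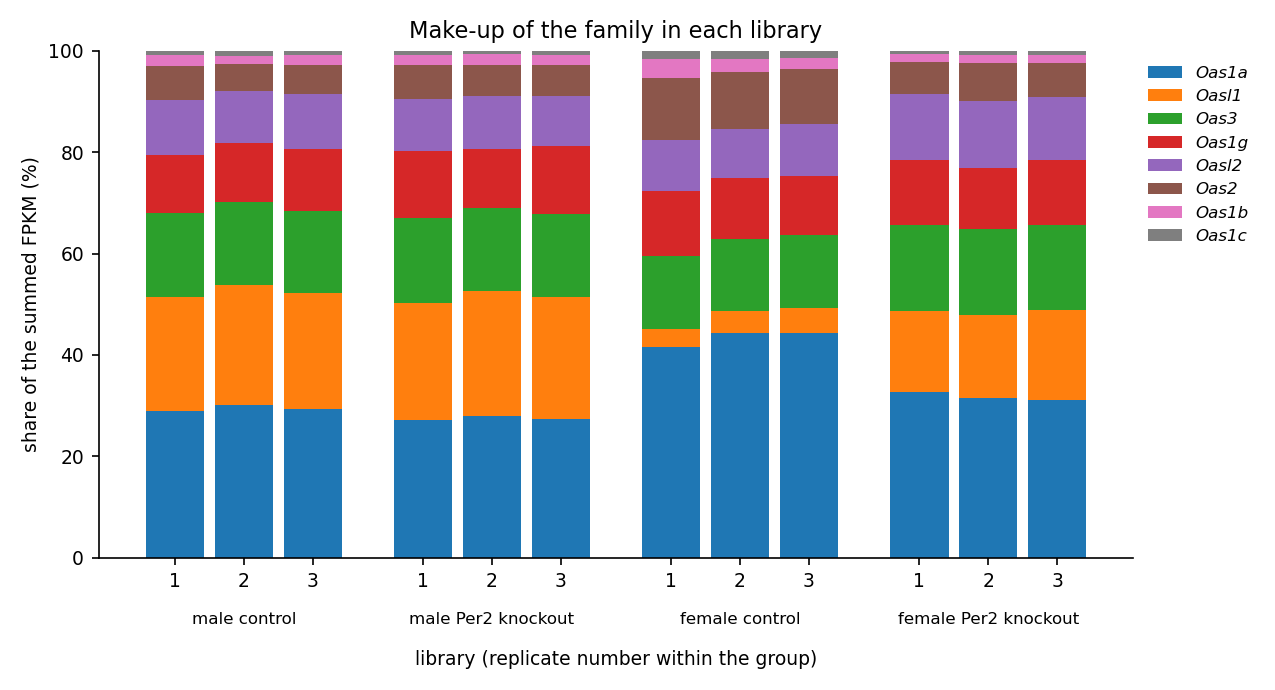
Share of each gene in the summed FPKM of the family, in percent, 1 bar per library. The Oasl1 segment is narrowest in the 3 female controls, at 3.61% to 4.83%, and the Oas1a segment is widest there.

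The family's expression across all 12 libraries was closely shared. Pearson correlations between the 28 pairs of members ran from 0.949 (Oasl2 with Oas1c) to 0.999 (Oasl1 with Oas3), as a description over 12 libraries that share the group differences. Over deviations from the group means they ran from 0.04 (Oasl1 with Oas1b) to 0.951 (Oas3 with Oasl2), with a median of 0.583. The 5 genes outside the family most like its mean over the 12 libraries were Ifi206 (r = 0.999), Sdc3, Parp12, Ifit3 and Maf, and 239 genes had r over 0.99. Over deviations from the group means they were Acot8 (r = 0.970), Pdpn, Stat2, Uba7 and Mx1.

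Among genes of 2-5A turnover, Pde12, a 2-5A-degrading phosphodiesterase, was called lower in female knockouts, at −0.23 (limma adjusted p = 0.0292). Pde12 was not called without female control replicate 2 (adjusted p = 0.0906) or 3 (0.109), or without female knockout replicate 1 (0.0817) or 2 (0.0754). Akap7, whose product has a domain related to 2-5A phosphodiesterases, was not called (0.06, adjusted p = 0.671).

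Of 11 other sensors of foreign nucleic acid and their adaptors, 9 were called higher in female knockouts and none lower, with a median of 1.42. Over all genes tested, 24.9% were called higher and 24.9% lower, and these shares also apply to the lists that follow. The RNA helicase sensors Ddx58 (RIG-I), Dhx58 (LGP2) and Ifih1 (MDA5) rose by 2.52, 2.20 and 2.15, and Eif2ak2 (PKR), a kinase that halts translation on double-stranded RNA, rose by 1.28. Mavs, the adaptor of the helicases, differed by 0.06 (adjusted p = 0.454), and Cgas by 0.19 (adjusted p = 0.146; 0.0183 without female control replicate 3).

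Of 13 genes of interferon, its receptors and its factors, 12 were called higher and none lower in females, with a median of 0.66. Irf7, the factor that amplifies interferon production, rose by 4.28, from 13.1, 12.3 and 16.6 to 283, 246 and 339 FPKM, against 574 to 678 in male controls. Stat2 rose by 2.08 and Irf9 by 0.90. Irf3, the gene that was not called, differed by −0.13 (adjusted p = 0.0546; 0.0133 without female control replicate 2). Ifnb1, which encodes interferon beta, had 0 reads in each of the 3 female controls and 9, 6 and 6 reads in female knockouts, against 28 to 117 in the 6 male libraries. The 117 reads were in male knockout replicate 2, the library with the most assigned reads. In FPKM, Ifnb1 stood at 0.530 to 0.699 in female knockouts and 2.37 to 4.15 in males.

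All 15 other interferon-stimulated genes were called higher in female knockouts, with a median of 3.26. Ifit3 rose by 4.29, Ifit2 by 4.28, Ifit1 by 3.72 and Bst2 by 2.73. Of 8 tested clock genes, 1 was called higher and 1 lower in females, with a median of −0.01. Per1 differed by 0.26 (adjusted p = 0.0446) and Arntl by −0.08 (adjusted p = 0.476). Clock, the gene called lower, differed by −0.17 (adjusted p = 0.0264). It was not called without female control replicate 2 (0.0816) or 3 (0.0736), or female knockout replicate 1 (0.0945) or 3 (0.0504). Per1 was not called without male control replicate 1 (0.0566), male knockout replicate 3 (0.0583), female control replicate 1 (0.144) or 2 (0.0795), or female knockout replicate 2 (0.0813) or 3 (0.140). No gene of these 4 lists was called in males, where 0.0% of all 12102 genes tested were called.

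**Figure D4:**
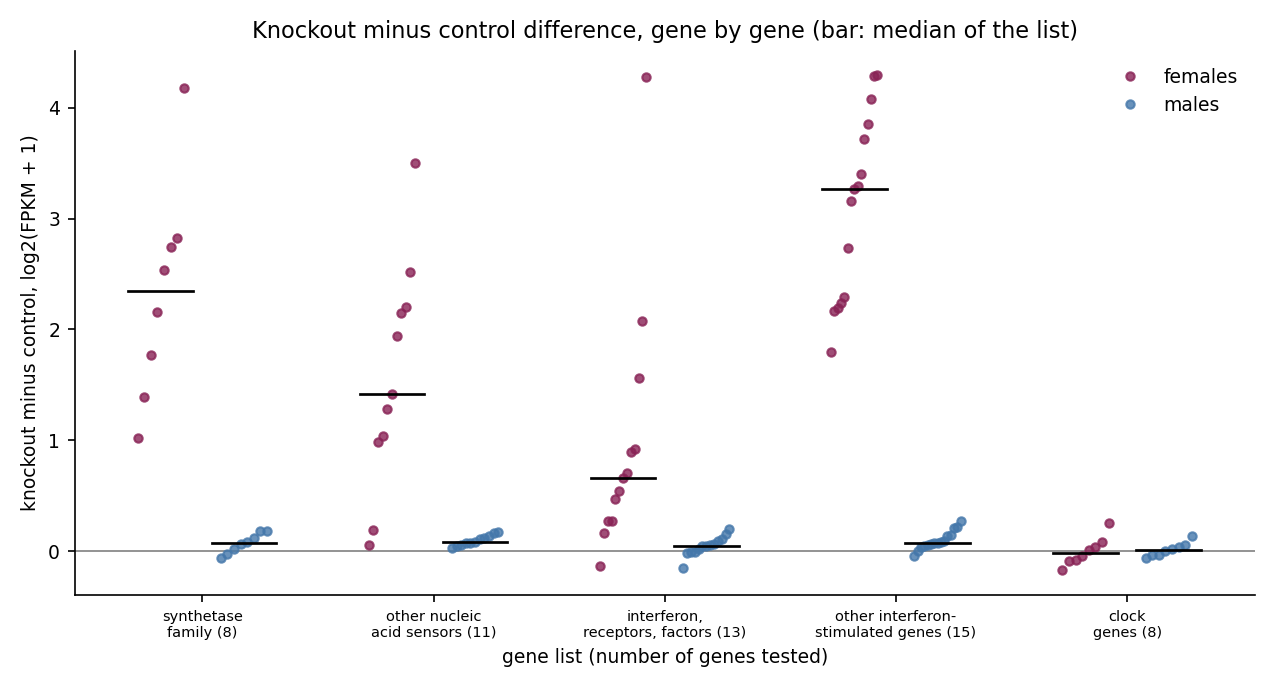
Knockout minus control difference in log2(FPKM + 1), 1 point per tested gene, for the family and 4 gene lists, with a bar for the median. In females the family has a median of 2.35 and the other interferon-stimulated genes one of 3.26, while the male points lie near 0 in every list.

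Some lists of cell type markers also differed between the female groups, in differing directions. Of all genes tested, 24.9% were called higher and 24.9% lower in female knockouts. Of the 10 osteoclast markers, Acp5, Mmp9, Oscar, Itgb3 and Ocstamp were called higher and Nfatc1 lower in female knockouts. The number called higher was 1 after quantile normalization, 3 with assigned reads as the denominator or without female knockout replicate 2, and 2 with no filter on low values. Nfatc1 was not called without female control replicate 1, 2 or 3 or female knockout replicate 1 or 3, nor after median-ratio rescaling or with no filter. The 9 macrophage or monocyte markers had a summed level of 529 to 555 FPKM for female controls, 1035 to 1184 for female knockouts, 1425 to 1689.7 for male controls and 1555 to 1585 for male knockouts. In females 8 of the 9 were called higher in knockouts and 1, Cx3cr1, lower, and none was at 0. The 5 B cell markers summed to 25.9 to 39.7 FPKM in female controls and 10.1 to 21.1 elsewhere, and all 4 that were tested were called lower in female knockouts. The 7 neutrophil markers summed to 2283 to 5216 FPKM, with none of the 7 called between the female groups. The 5 plasmacytoid dendritic cell markers summed to 16.7 to 20.6 FPKM in female controls, 7.90 to 10.2 for female knockouts and 9.003 to 17.3 for males. Of their 3 tested genes Siglech (−0.52, adjusted p = 0.00357) and Ly6d (−1.24, adjusted p = 0.00496) were called lower in female knockouts and Tcf4 (0.39) higher. The 6 T or NK cell markers summed to 4.94 to 7.07 FPKM for female controls and 6.57 to 9.11 for female knockouts. Males held 11.6 to 18.7 FPKM of them. Of their 2 tested genes Cd4 (0.71, adjusted p = 0.000792) was called higher in female knockouts and Nkg7 (0.02, adjusted p = 0.941) was not called. The 4 untested genes, Cd3e, Cd3g, Cd8a and Klrb1c, had means under 1 FPKM. Each of their means was lower in female knockouts than in female controls. The 6 stromal markers summed to 1.33 to 23.3 FPKM in female controls and 3.15 to 12.8 in female knockouts. Male controls held 13.3 to 31.5 FPKM of them and male knockouts 3.13 to 6.46, without overlap. None of the 5 tested was called in either sex, and 0.0% of all genes tested were called in males. The part of these markers in the result was not tested. The ratio of assigned reads to the FPKM denominator also followed the groups, at 0.936 to 0.948 for female controls, 1.01 to 1.02 for female knockouts and 1.07 to 1.11 for males. With assigned reads as the denominator, 8 of 8 members were still called higher in female knockouts.

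Within 200 kb of the Oasl1 and Oasl2 cluster, 4 of 9 tested neighbours were called higher and 2 lower in female knockouts, where 24.9% of all genes tested were called higher and 24.9% lower. Those higher were Gm13822, 1500011B03Rik (0.41), Ankrd13a (0.33) and Acads (0.20), and those lower were Unc119b (−0.31) and Sppl3 (−0.24). Gm13822 is a long noncoding RNA on the opposite strand that overlaps Oasl1 by 38 bases, with 0.479 ± 0.148 FPKM for female controls and 6.40 ± 0.300 for female knockouts (SD, n = 3), a gene singled out after its values were seen. The strand setting of the counting is not given in the sources used here, so reads in the overlap cannot be told apart. Around the other cluster, 1 of 5 tested neighbours was called higher, Slc8b1 at 0.76, and 1 lower, 2510016D11Rik at −0.31, which is near those shares of all genes. Acads was not called without female control replicate 2 (adjusted p = 0.0558) or 3 (0.0888) or female knockout replicate 2 (0.0886), and 2510016D11Rik was not without female control replicate 3 (0.0599) or female knockout replicate 2 (0.0540). Oas1d, Oas1e, Oas1f and Oas1h, the family genes outside the 8, had 4, 7, 1 and 134 reads over the 12 libraries and did not pass the filter.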

How the data were processed

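FPKM values of 55806 genes in 12 libraries were made and deposited by the authors. The submitters' processing notes list HISAT2 2.0.5 (alignment), featureCounts 1.5.0-p3 (read counting) and build mm10. Neither the strand setting nor the FPKM denominator is stated there. The table's positions differ from GRCm38 by 138059 to 138065 bases at the members, so coordinates come from GENCODE M21 and RefSeq. Whole reads were recovered from the FPKM steps for 100% of values within 0.01, which gave the depth.

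Log2(FPKM + 1) values were modelled with limma 3.58.1 (R 4.3.3), using 4 group means over all 12 libraries, a trended prior and 10.95 total degrees of freedom, without a block. A gene entered with FPKM of 1 or more in 3 or more libraries, which left 12102. P-values are two-sided and were adjusted by Benjamini-Hochberg over all of them, with a threshold of 0.05, and every adjusted p is from this model, unless a left-out library or another setting is named beside it. Single values had an exact permutation test. Alternatives were other pseudocounts, filters and scalings, voom on recovered reads, the batch as a block, and leaving out each library.

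All 8 members are named. From each list up to 4 genes with the smallest p in females are named, with genes the pathway needs. Some genes that this rule reached are not reported here. Apol9a and Apol9b were chosen after their windows were seen. The members and lists were chosen with earlier results of these data known. Libraries with the same number share a labelled batch, so the numbers pair them by label. The deviations of same-numbered libraries from the group means correlated at 0.02 on average over 18 pairs (−0.118 to 0.092). The title of the series says PER1, but groups here follow the Per2 of the sample labels.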

Additional observations from a re-analysis of the deposited data

Results flagged for a closer look

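The knockout effect differed between females and males for all 8 members, by the interaction term of the limma model. Of all 12102 genes tested, 34.6% were called in that term and 17.9% were called higher. The female effect exceeded the male one, on the log2(FPKM + 1) scale, by 4.05 for Oasl1, 2.80 for Oasl2, 2.66 for Oas3 and 2.36 for Oas1g. For Oas1a the excess was 2.18, for Oas2 1.59, for Oas1b 1.32 and for Oas1c 1.09.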

How the results depend on the processing

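The counts of members called, 8 in females, 0 in males, 8 in the interaction and 8 in each comparison of the sexes, were the same under every alternative and without any 1 library. With the labelled batch as a replicate block they were also 8, 0, 8, 8 and 8, and the largest adjusted p of a member in females was 9.51e-05. Over the main fit and all alternatives, 4628 to 6582 of all genes were called in females and 0 to 4 in males, in either direction. The numbers were 3514 to 4768 in the interaction, 5440 to 8109 between the controls of the sexes and 2994 to 4778 between their knockouts. Leaving out 1 library changed the sign of male differences that were not called. Oas1a ranged from −0.060 to 0.0035, the highest without male control replicate 2. Oas1b ranged from −0.017, without that same library, to 0.138, and Oas1c from −0.135 to 0.024, above 0 without male control replicate 2 or male knockout replicate 2 (0.020). Oasl2 ranged from −0.0022, without male knockout replicate 1, to 0.046. In females Akap7 ranged from −0.059, without female control replicate 3, to 0.138, and was −0.012 with assigned reads as the denominator. Mavs in females was −0.044 with assigned reads and −0.0044 after quantile normalization. The cause was not tested. Assigned reads moved the median of all genes by up to 0.17, in the comparison of controls. With assigned reads Per1 (adjusted p = 0.129) and Acads (0.241) were no longer called in females. With no filter on low values Per1 (0.110), Pde12 (0.0714), Clock (0.0574) and Acads (0.0510) were not, and with a pseudocount of 5 neither Per1 (0.0651) nor Ifnb1 (0.0525) was. Acads was also not called after quantile normalization (0.411, with a difference of 0.072 in place of 0.20) or with the 6 female libraries alone (0.0612). Irf3 was called lower with assigned reads (0.00396), after quantile normalization (0.0133) and with a filter of 5 FPKM (0.0445).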
